A study of Phaseolus coccineus with 4 samples.

Results

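The genes described here were found in the suspensor and nearly not in the embryo proper of scarlet runner bean (Phaseolus coccineus). They were chosen by their measured values. Each had an RPKM of at least 1 and under 100 in both suspensor libraries and under 0.1 in both embryo proper libraries. RPKM counts a gene's reads relative to its length and to the depth of the library. Of 19883 genes listed in any library, 100 met this rule, and they are called suspensor-only genes below. The name describes these limits and not proven absence from the embryo proper.

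The suspensor is the stalk that ties a plant embryo to the tissue of the mother seed, passes nutrients and growth regulators to it, and is later lost. The embryo proper above it becomes the plant body. In runner beans the suspensor is large, its basal cells carry giant polytene chromosomes (many aligned copies of the DNA), and it is a classic source of gibberellins, the hormones that promote growth. Both regions arise from the fertilised egg.

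All plants were of the cultivar Hammond's Dwarf Red Flower, untreated, and seeds with globular-stage embryos were taken 6 days after hand pollination. Laser capture took the embryo proper and the suspensor from 6-micron sections in paraffin, with 2 libraries per region that the labels call biological replicates. The number of embryos or plants behind a library is not given in the sources used here, so p-values measure only the spread between these libraries. The recovered depth was 32855045 to 38967825 reads in the embryo proper and 47091897 to 56899297 reads in the suspensor. The files identify genes by IDs alone, and none of them is found among the 34063 genes of the available reference, so no gene is given a name or role and the regions could not be checked against marker genes. All IDs printed here begin with Phvul, and the species of the gene models behind them is not given in the sources used here. Levels, recovered lengths and ID order rest on those models and need not be those of scarlet runner bean. In dissected tissue, fewer cells with a transcript and less of it per cell cannot be told apart.

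The suspensor-only genes were genes of low level. Their mean RPKM over the suspensor libraries ran from 1.18 to 14.3 with a median of 3.81. It was at least 10 in 5 of them, from 5 to 10 in 27, from 2 to 5 in 51 and under 2 in 17. In suspensor replicate 1 they ran from 1.04 to 25.1 RPKM with a median of 3.81, and in suspensor replicate 2 from 1.03 to 15.2 RPKM with a median of 3.39. The upper limit of 100 RPKM removed none. Together they made up 0.0614% and 0.0502% of the summed RPKM of suspensor replicates 1 and 2. Every gene that reached 100 RPKM in both suspensor libraries, 684 in all, stood at 1.21 RPKM or more in at least 1 embryo proper library.

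**Figure D1:**
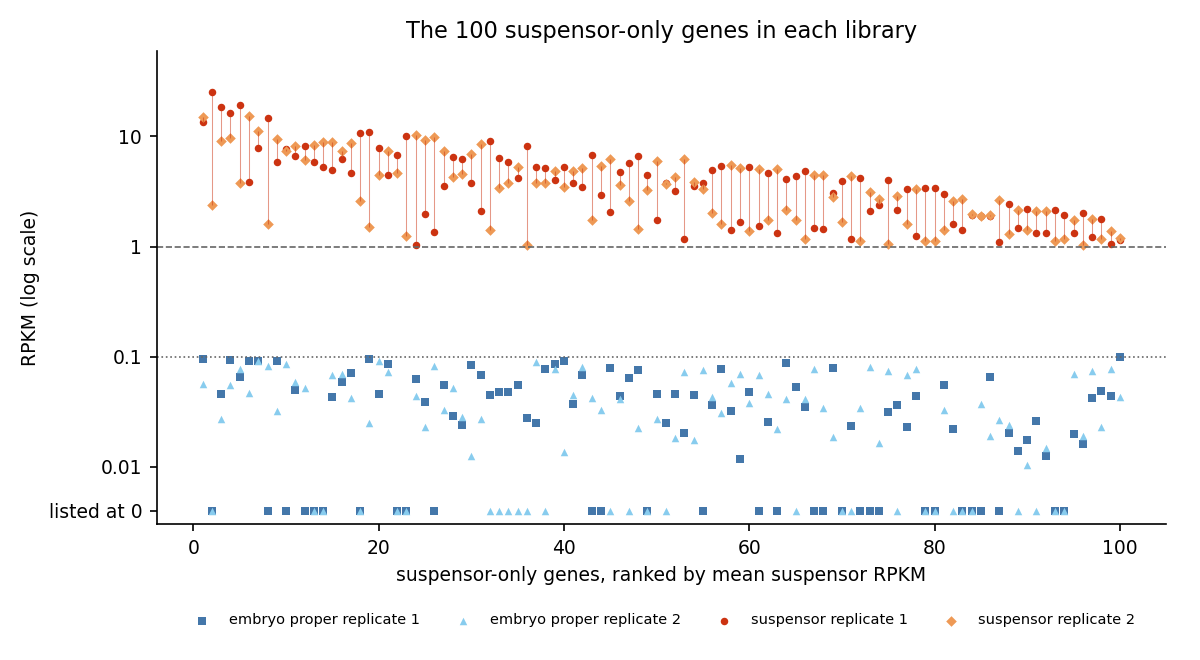
RPKM (log scale) of the 100 suspensor-only genes in each of the 4 libraries, ranked by their mean over the suspensor libraries, with a thin line joining the suspensor values of a gene. The dashed and dotted lines are the limits of 1 and 0.1 RPKM that chose the genes, so the gap between the regions is set by the rule, and the lowest row holds values listed at 0.

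The member with the highest mean was Phvul.010G087000. It stood at 13.6 and 15.0 RPKM in suspensor replicates 1 and 2, or 14.3 ± 0.989 RPKM (SD, n = 2), and at 0.0961 and 0.0570 RPKM in embryo proper replicates 1 and 2. The suspensor values were thus close to each other. These levels came from 413 and 377 reads in the suspensor against 2 and 1 reads in the embryo proper. Pooled over the replicates and per read of depth, the suspensor held 182 times as many, with an exact 95% binomial interval of 62.0 to 884 that covers counting error only. The rule chose the gene by these same values, so a high ratio was set by the choice and the interval is no test of it. The second, Phvul.001G233300, reached nearly the same mean in a different way, with 25.1 RPKM in the first suspensor library but 2.39 RPKM in the other, or 13.7 ± 16.0 RPKM (SD, n = 2). It was listed at 0 in both embryo proper libraries. Its 127 and 10 reads lay on a recovered length of only 89 bases, and its replicates were 10.5-fold apart, the widest gap of any member. The next in rank, Phvul.008G019900 and Phvul.008G218800, were named after their values were seen. Phvul.008G019900 stood at 18.4 and 9.01 RPKM in the suspensor and at 0.0461 and 0.0273 RPKM in the embryo proper, and Phvul.008G218800 at 16.3 and 9.64 RPKM against 0.0928 and 0.0550 RPKM. In both, suspensor replicate 1 was the higher library.

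The embryo proper signal of these genes rested on few reads. Over all 100 genes, 211 reads were recovered in embryo proper replicate 1 and 150 in embryo proper replicate 2, against 28929 and 25117 in suspensor replicates 1 and 2. In embryo proper replicate 1, 30 members had no read, 52 had 1 to 3 reads and 18 had more, with a highest of 11. In embryo proper replicate 2 the counts were 29, 62 and 9, with a highest of 5. At their mean suspensor RPKM the members would have had a median of 161 reads in embryo proper replicate 1 and 136 in replicate 2, and 99 of them at least 10 reads in both. The exception was Phvul.005G162800, with a recovered length of 91 bases, for which 5.49 and 4.63 reads would have been found. The mean embryo proper level was a median of 0.807% of the mean suspensor level and at most 6.04%, which the limits of the rule cap at under 10%.

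**Figure D2:**
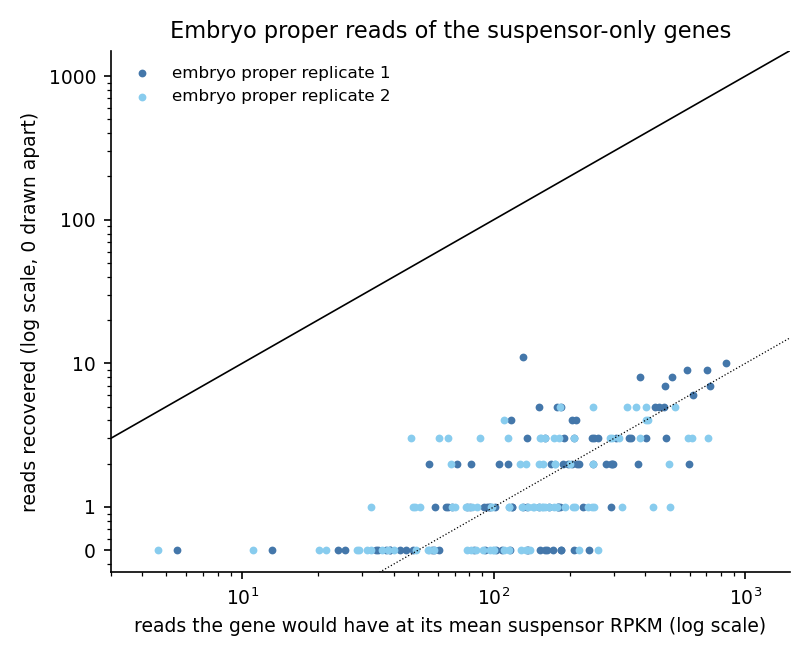
Reads recovered in each embryo proper library for the 100 suspensor-only genes (vertical, log scale, with 0 drawn apart) against the reads each gene would have there at its mean suspensor RPKM (horizontal, log scale). The solid line marks equality and the dotted line 1 read per 100 expected; 211 and 150 reads were recovered in all.

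No read was found in either embryo proper library for 14 members, while 31 had reads in 1 of them and 55 in both. The 14 were short, with a median recovered length of 324 bases, against 1242 bases for the other members. This contrast is partly set by the rule, since a short gene collects fewer reads at a given RPKM. At the recovered lengths of 89 to 201 bases among the 14, 1 embryo proper read would exceed 0.1 RPKM, so the rule allowed none. Recovered lengths are also the shortest that fit, and may be too low where the suspensor libraries alone hold reads. With a floor of 3 reads over both embryo proper libraries and the suspensor reads pooled, the 14 members were at least 3.45-fold to at least 90.0-fold higher in the suspensor. The median of these bounds was 24.4-fold. They allow for counting in the embryo proper only and not for the gap between the suspensor replicates, and the rule had already set their direction. The highest bound was that of Phvul.009G047600, which had 355 and 36 reads in the suspensor, at 10.2 and 1.25 RPKM. Those with similar suspensor replicates included Phvul.007G001800, at 5.92 and 8.42 RPKM and at least 65.2-fold higher, and Phvul.006G066700, at 5.33 and 8.93 RPKM and at least 55.5-fold higher. These IDs were picked after their values were seen.

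The suspensor replicates differed for many of these genes. The median difference between the replicates was 0.90 on the log2 scale, a 1.86-fold gap. The replicates lay within 2-fold for 57 members and over 4-fold apart for 15, of which 4 were over 8-fold apart. Neither replicate was the higher throughout, since 49 members were higher in replicate 1 and 51 in replicate 2. Among the 8372 other genes at 1 to 100 RPKM in both suspensor libraries, whose median mean level was higher at 12.5 RPKM, the median gap was 1.92-fold and 18.6% were over 4-fold apart. The 4661 of them with a mean no higher than that of the highest member had a median gap of 2.01-fold and 19.7% over 4-fold apart. Every gene in these sets had to reach 1 RPKM in both suspensor libraries, which bounds the gap, and the last set had a higher median mean level than the members, 6.58 against 3.81 RPKM. These gaps therefore do not show how well a suspensor-only gene holds between replicates, which the genes chosen without 1 library show below.

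The extremes show what a mean over 2 libraries hides. Phvul.001G243100 stood at 1.04 RPKM in suspensor replicate 1 and at 10.3 RPKM in the other, from 122 and 996 reads. Phvul.011G137900 stood at 14.6 and 1.62 RPKM, from 305 and 28 reads. These members were at their high level in opposite libraries. At the other end, 8 members agreed within 1.1-fold, among them Phvul.011G029200 at 1.90 and 1.90 RPKM and Phvul.007G214200 at 7.76 and 7.36 RPKM. All 4 were chosen after their values were seen.

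**Figure D3:**
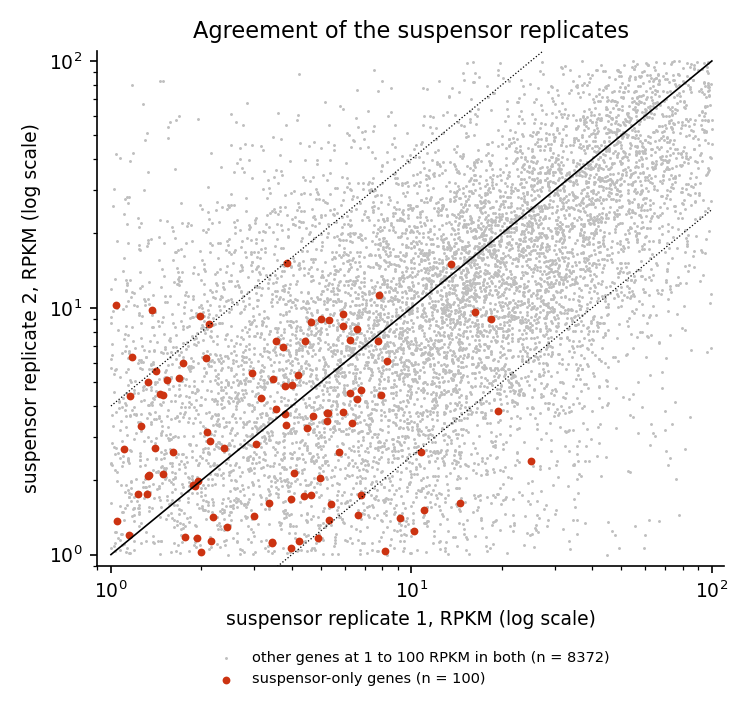
RPKM in suspensor replicate 2 against suspensor replicate 1 (both log scale) for the 100 suspensor-only genes and for 8372 other genes at 1 to 100 RPKM in both. The solid line marks equality and the dotted lines a 4-fold gap, outside which lie 15 of the suspensor-only genes.

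To see how far the choice held in a library it did not use, genes were chosen with 1 suspensor library and both embryo proper libraries and then read in the other suspensor library. Chosen without suspensor replicate 2, there were 416 genes. Of these, 100 (24.0%) had at least 1 RPKM in suspensor replicate 2, 222 were under 0.1 RPKM and 57 were listed at 0. Chosen without suspensor replicate 1, there were 328 genes, of which 100 (30.5%) had at least 1 RPKM in suspensor replicate 1 and 158 were under 0.1 RPKM. Most genes that look restricted to the suspensor in 1 library were thus not found at that level in the other.

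That share was below the share for genes of the same level at large. Of all genes at 1 to 100 RPKM in suspensor replicate 1, 82.7% had at least 1 RPKM in suspensor replicate 2, and in the other direction the share was 83.4%. For genes at 1 to 2 RPKM in suspensor replicate 1, it was 20.7% of the chosen genes against 57.3% of all genes, and at 2 to 5 RPKM it was 22.6% against 70.7%. Above 5 RPKM it was 30.4% against 90.5%, but there the chosen genes also had a lower median level, 7.90 against 17.2 RPKM. The mirror rule, with the regions exchanged, kept more of its genes. Chosen without embryo proper replicate 2, 668 of 1112 genes (60.1%) had at least 1 RPKM in it, and without embryo proper replicate 1 it was 667 of 1196 (55.8%). The sets share libraries, so these shares are descriptions with no test.

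**Figure D4:**
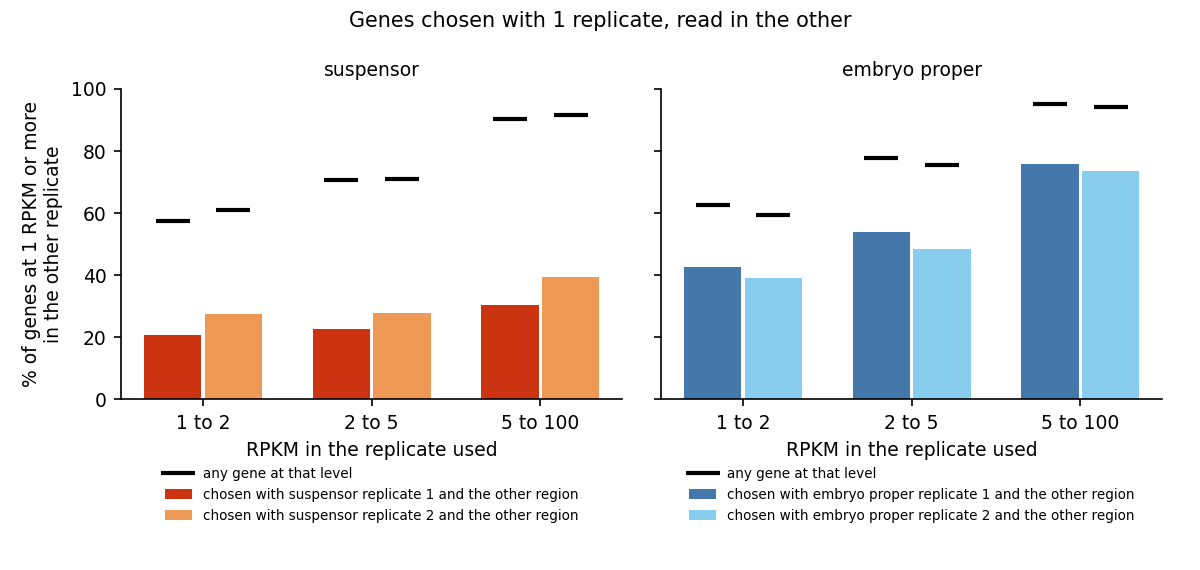
Share of genes at 1 RPKM or more in the replicate that was not used to choose them, by their RPKM in the replicate used. Bars are genes also under 0.1 RPKM in both libraries of the other region, and black marks are all genes at that level; the suspensor bars lie between 20.7% and 39.2%, below every mark and below the embryo proper bar of the same level.

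The embryo proper libraries were left out in the same way. With both suspensor libraries and embryo proper replicate 1 alone, 203 genes were chosen, of which 100 (49.3%) were under 0.1 RPKM in embryo proper replicate 2 and 39 had at least 1 RPKM there. With embryo proper replicate 2 alone, 195 were chosen, and 26 of them had at least 1 RPKM in embryo proper replicate 1. The mirror rule over all 4 libraries gave 667 genes, 6.67 for each suspensor-only gene. The suspensor libraries were the deeper ones. At least 1 RPKM was reached by 12925 and 13110 genes in embryo proper replicates 1 and 2, and by 11441 and 11382 in suspensor replicates 1 and 2. The part of depth and of these totals in the difference was not tested. The embryo-proper-only genes had a median mean level of 5.91 RPKM, and 29.5% of them reached 10 RPKM against 5 of 100 suspensor-only genes. The difference in number held in direction with the other scalings, at 134 against 556 genes after a median ratio rescaling and 93 against 695 after rescaling every library to the same summed RPKM.

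All 100 members passed the filter of at least 1 RPKM in at least 2 libraries and were part of the test across 13527 genes (limma on log2(RPKM + 1)). The rule used the same contrast, so what follows is a description. Of the members, 7 were called higher in the suspensor at a Benjamini-Hochberg adjusted p under 0.05, beside 2.10% of all tested genes. All 100 had an unadjusted p under 0.05, beside 1107 of the 13527 tested genes that were higher at this limit. The adjusted p-values of the members ran from 0.0425 to 0.168. Their log2 fold changes ran from 1.02 to 3.83 with a median of 2.16, while the median of all tested genes was -0.45. Over all tested genes 284 were called higher and 638 lower as deposited, but 346 higher and 283 lower after a median ratio rescaling, where the median of all genes lay at -0.01 and 3 members were called. With every library brought to the same summed RPKM, the median of all genes lay at -0.61 and 9 members were called, beside 265 of all genes. Adding 1 to each RPKM shrinks the fold changes of genes this low, and the calls followed that choice. At a pseudocount of 0.1, 93 members were called higher, beside 526 of all tested genes. At a pseudocount of 5 no member was called, beside 182 of all tested genes. There 68 members had an unadjusted p under 0.05, beside 1023 of all tested genes that were higher at this limit. Leaving out any library ended the calls of all members, in fits where a region has only 1 library. Their median log2 fold change then ran from 2.09 to 2.21, in a direction that the choice of members fixes.

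The 7 called members had high levels and close replicates, which the test itself favours where the embryo proper values lie near 0. Their suspensor means were 7.17 RPKM or more, with replicates no more than 2.04-fold apart, and they were 7 of the 15 members that averaged 7 RPKM or above. They comprised Phvul.010G087000 with a log2 fold change of 3.83 ± 0.757 (standard error; limma adjusted p = 0.0425), Phvul.008G218800, Phvul.008G019900, Phvul.007G001800, Phvul.007G214200, Phvul.008G122900 and Phvul.009G081700. Phvul.008G122900 stood at 8.27 and 6.11 RPKM in the suspensor with 0 and 1 reads in the embryo proper. Phvul.009G081700 stood at 7.81 and 11.2 RPKM, with 6 and 5 reads in the embryo proper. Pooled over the replicates, the suspensor held 102 times as many reads per depth (exact 95% interval 57.0 to 205, counting error only). That ratio too comes from the values that chose the gene. Phvul.001G233300, with a mean nearly as high as the first, had a log2 fold change of 3.23 ± 1.06 (standard error) and was not called (limma adjusted p = 0.110). Nor was Phvul.008G131300, with a mean of 7.39 RPKM and replicates 1.24-fold apart (limma adjusted p = 0.0502). Level and replicate gap therefore did not fully separate the called members from the others.

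The suspensor-only genes had shorter recovered lengths than other genes. The rule did not use length directly, but its embryo proper limit of 0.1 RPKM allows fewer reads in a shorter gene. Their median recovered length was 1129 bases, with quartiles at 605 and 1675 bases. The other genes at 1 to 100 RPKM in both suspensor libraries had a median of 1694 bases, and the embryo-proper-only genes 1635 bases. Lengths under 1000 bases were found for 42 of 100 suspensor-only genes, 17.2% of the other genes and 18.3% of the embryo-proper-only genes. In the 4661 other genes of like low level, the median was 1821 bases and 13.8% were under 1000. Without the 14 members with no embryo proper read, the median was 1242 bases. Another 31 members had no read in 1 of the embryo proper libraries, so this does not remove the part of the rule, which was not tested. A recovered length is the shortest that gives whole reads in all libraries, so a true length may be a multiple of it, most of all where only the suspensor libraries hold reads. The lengths of 89, 91 and 98 bases of Phvul.001G233300, Phvul.005G162800 and Phvul.008G065300 are of that kind.

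**Figure D5:**
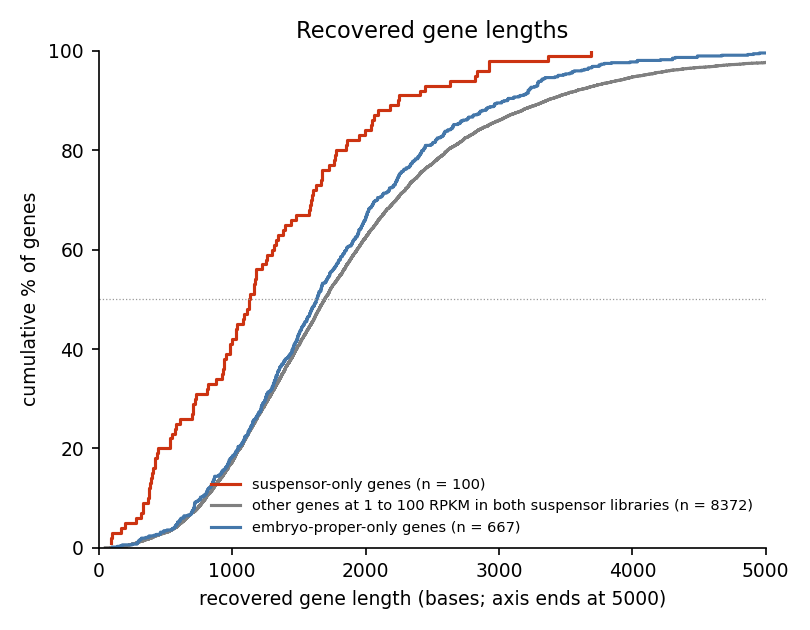
Cumulative share of genes by recovered length in bases for 100 suspensor-only genes, 8372 other genes at 1 to 100 RPKM in both suspensor libraries and 667 embryo-proper-only genes. The medians, where the curves cross the dotted line, are 1129, 1694 and 1635 bases.

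Genes next to the suspensor-only genes in ID order were read as a measure that the rule left out. In IDs of this form the digits before the letter G usually stand for a chromosome and those after it rise along it in steps of 100. The files give no coordinates, so the order of IDs was used and not position. The members were spread over all 11 number fields, with 5 to 14 in each. Of the genes whose number lay 100 above or below that of a member, 99 were tested and were not members themselves. Of these, 10 (10.1%) were called higher in the suspensor, beside 2.10% of all tested genes, and 4 (4.04%) were called lower, beside 4.72% (limma adjusted p under 0.05). At an unadjusted p under 0.05, 23 of the 99 were higher, beside 1107 of all 13527 tested genes. The median log2 fold change of these 99 neighbours was 0.24 against -0.45 over all tested genes, and 54.5% were above 0 against 37.8%. Beside the 8372 other genes at 1 to 100 RPKM in both suspensor libraries, 2.05% of 7699 neighbours were called higher and 4.56% lower, with the suspensor-only genes left out of the neighbours in the same way. Beside the embryo-proper-only genes, 1.56% of 639 neighbours were called higher and 5.01% lower, with the embryo-proper-only genes and not the suspensor-only genes left out of the neighbours. Without any single library, at most 1 of the neighbours was called.

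The 10 neighbours called higher were mostly far more abundant than the members. They stood at a mean of 16.1 to 1267 RPKM in the suspensor, with log2 fold changes from 2.22 to 6.63, and the 10 members beside them at a median of 2.58% of their level. In all, 15.2% of the neighbours averaged 100 RPKM or more in the suspensor, against 6.51% of all tested genes and 6.64% of the neighbours of the 8372 other genes, and the part of level in the share called was not tested. None of the 10 members was itself called. The same suspensor replicate was the higher one for both genes in 7 of these 10 pairs and in 51 of all 100 pairs of a member and a neighbour. Phvul.001G029100, a member, stood at 8.18 and 1.03 RPKM in suspensor replicates 1 and 2, while its neighbour Phvul.001G029200 stood at 1633 and 900 RPKM there and at 11.2 and 11.3 RPKM in the embryo proper. Phvul.011G142300 stood at 11.0 and 1.52 RPKM beside Phvul.011G142200 at 106.6 and 88.6 RPKM, which had 2.49 and 1.18 RPKM in the embryo proper. Phvul.002G296800 stood at 6.36 and 3.42 RPKM beside Phvul.002G296900 at 16.0 and 16.1 RPKM. That neighbour stood at 0.09995 and 0.207 RPKM in the embryo proper, so replicate 2 alone kept it out of the rule. How the authors counted reads that overlap adjacent genes, and whether they used strand, is not given in the sources used here, so the part of such reads in the low levels was not tested. These pairs were picked after their values were seen.

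Some members also lay near each other. Within an ID distance of 500 there were 6 pairs, which held 9 of the 100 members. Phvul.005G162800, Phvul.005G162900 and Phvul.005G163300 formed a group of this kind, and none of the 3 had a read in the embryo proper. For the first and second this is set by the rule. At their recovered lengths of 91 and 201 bases, 1 read in an embryo proper library would exceed 0.1 RPKM. Phvul.005G162900 was the highest, at 6.82 and 4.65 RPKM in suspensor replicates 1 and 2, and Phvul.005G163300 stood at 3.44 and 1.11 RPKM. Phvul.008G064900 and Phvul.008G065300 stood at 3.82 and 3.36 RPKM and at 10.8 and 2.60 RPKM, and the next ID after the latter, Phvul.008G065400, was one of the neighbours called higher, at 133.8 and 138.5 RPKM. Of the embryo-proper-only genes, which are more numerous and so lie closer together, 29.1% had another within 500.

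The limits cut through a range of values with no gap. Nearest inside the embryo proper limit was Phvul.008G166800, at 0.0995 and 0.0429 RPKM there and 1.15 and 1.20 RPKM in the suspensor, which also had the lowest suspensor mean of all members. Nearest outside was Phvul.001G032600, at 0.1004 and 0.0298 RPKM in the embryo proper and 4.26 and 3.59 RPKM in the suspensor. On the suspensor side, Phvul.002G025300 was just inside at 2.00 and 1.03 RPKM, and Phvul.009G027300 just outside at 1.42 and 0.959 RPKM. The higher embryo proper value lay between 0.05 and 0.1 RPKM in 51 members, and between 0.1 and 0.2 RPKM in 86 genes that met the suspensor limits.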

How the data were processed

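For each library the authors deposited RPKM values, listing genes above 0, and a gene missing from a table was set to 0. Bowtie 0.12.7 and bedtools were used, per the submitters' processing notes. Neither genome build and annotation nor the handling of shared reads and strand is given in the sources used here, and near-identical or overlapping genes may carry each other's signal. Per the labels' protocols, 5 ng of RNA was amplified before library preparation, no molecular identifiers are described, and intervals cover counting error only.

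The depth, gene lengths and whole reads were recovered from the RPKM values. For each library the depth was found at which low values give whole lengths, and for each gene the shortest length of 50 to 20000 bases that gives whole reads in all 4 libraries (tolerance 2e-05 reads plus 1e-07 per read), which existed for all 19883 genes. The recovered reads summed to 97.5% to 98.8% of the depths. At a given depth a level of 0.1 RPKM lies above or below 1 read according to gene length.

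The test was limma 3.58.1 in R 4.3.3 on log2(RPKM + 1), with region as the only term, eBayes with a trend, two-sided, over genes with at least 1 RPKM in at least 2 libraries, Benjamini-Hochberg adjusted with a threshold of 0.05, and prior degrees of freedom of 4.33. No label says that replicate numbers pair the samples, so no block was used. Tables and figures were made with Python 3.11.15, numpy 2.4.6, pandas 2.3.3, scipy 1.17.1 and matplotlib 3.10.9. The fit and the recovery were run on simulated data. No outcome of those runs is given here, so they are no check of the values of the members. By rule, the 2 members with the highest suspensor mean are named, and other IDs were picked for their values. The members, lists and comparisons were chosen with earlier results of these data known. The alternatives were other limits, scalings, pseudocounts, no filter, a block for replicate number and each library left out in turn; the alternatives for ID neighbours, and the length without members lacking embryo proper reads, were added after the data were examined.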

Additional observations from a re-analysis of the deposited data

How the results depend on the processing

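The number of suspensor-only genes followed the limits. It was 49 with 2 RPKM in place of 1, 49 with 0.05 in place of 0.1, 186 with 0.2 in place of 0.1 and 14 with 0 RPKM in both embryo proper libraries. It stayed within 1.5 times with limits of 5 and 0.5 RPKM (105), with no upper limit and under both rescalings. With a library left out it was 195 to 416, and the embryo-proper-only genes numbered 956 to 1196, since fewer libraries had to meet the limits. All genes called higher (284) numbered 526 with a pseudocount of 0.1, 182 with 5 and 11 without a filter (19883 genes then tested), and 0 to 21 with a library left out, with 632 to 1289 at an unadjusted p under 0.05. Members called higher (7) numbered 93, 0 and 0 under the same 3 settings, 3 after the median ratio rescaling, and 0 to 0 with a library left out (limma; 68 and 90 had an unadjusted p under 0.05 with a pseudocount of 5 and with no filter). ID neighbours called higher (10) numbered 9 to 15 under the other pseudocounts and the rescalings, 0 with no filter (limma; 22 at an unadjusted p under 0.05) and 0 to 1 with a library left out (15 to 27 unadjusted). With no filter, 1076 of the 19883 genes were higher at an unadjusted p under 0.05. With a replicate block, 658 genes, 52 members and 19 ID neighbours were called. The deviations of same-numbered libraries did not correlate (Pearson's r = -0.03), so pairing by number is not established. Fits without a library take the lone sample to vary like the other region. The members' median log2 fold change was 0.79 with a pseudocount of 5 and 4.69 with 0.1. Its direction is fixed by the choice of members and says nothing of stability. Their median length stayed between 1035 and 1242 bases except among genes at 0 in the embryo proper (324). Beyond fewer libraries, more genes tested and the limits themselves, the cause was not tested.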
